A study of Homo sapiens with 9 samples.

Results

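The 10 genes described here carry out and control fatty acid synthesis and desaturation: SREBF1, ACLY, ACACA, FASN, SCD, FADS1, FADS2, ELOVL5, ELOVL6 and LPIN1. They were taken by gene symbol, through the Ensembl identifier of each row, from an expression table of 36810 genes. All 10 were found, and all 10 passed the filter on low values, which asked for at least 1 FPKM (fragments per kilobase of exon, scaled to the library's mapped fragments) in at least 3 of the 9 libraries and left 13657 genes for testing. The measurements were made in 143B, an established human osteosarcoma cell line, grown in RPMI-1640 medium with fetal bovine serum. Cells were either controls, labelled 0 h, or had received 0.5 µM of the compound XD23 for 24 h or 48 h, with 3 poly(A)-selected RNA libraries in each of the 3 groups. XD23 is known here only by its code name. No vehicle is named, nor any untreated culture kept for 24 or 48 h, so that the compound and the time in culture cannot be told apart. All samples are of this single line, and whether the replicates are separate cultures is not stated, so the p-values measure only the spread between these libraries, which may be technical. In bulk RNA, fewer cells that express a gene and less RNA of it per cell cannot be told apart.

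Cells build fatty acids from citrate. ATP citrate lyase (ACLY) splits citrate to acetyl-CoA, acetyl-CoA carboxylase (ACACA) makes malonyl-CoA in the committed step, and fatty acid synthase (FASN) joins these units into palmitate. Elongases (ELOVL5, ELOVL6) lengthen the chain and desaturases (SCD, FADS1, FADS2) place double bonds in it. Lipin 1 (LPIN1) removes the phosphate from phosphatidate and so supplies diacylglycerol for triglycerides and phospholipids. SREBF1 encodes SREBP-1, a transcription factor held in the endoplasmic reticulum with SCAP and INSIG proteins until it is cleaved, after which it activates many genes of this pathway. Its paralog SREBF2 acts mainly on cholesterol synthesis and uptake. Tumour cells often make fatty acids themselves even where serum supplies them.

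At 48 h, 4 of the 10 genes, ACLY, SCD, FADS2 and LPIN1, stood higher than in the controls by the test and none fell, where 13.3% of all tested genes rose and 15.2% fell, with LPIN1 the furthest apart at 1.55 times its control level. No gene of the 10 was called at 24 h. The elongases ELOVL5 and ELOVL6 and the regulator SREBF1 passed the test in no comparison.

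The libraries held 18341542 to 22901830 fragments each, worked out from the spacing of the FPKM values, and 12910 to 13345 genes reached 1 FPKM in each. For these 10 genes that depth gave from 523 fragments (FADS2) to 16332 (SCD) per library. The third 24 h library stood apart from the other 8: it lay at -24.7 on the second principal component, against -6.96 to 9.06 for the rest, and its mean log2 level of 77 ribosomal protein genes was 8.02 against 7.64 to 7.81. Calls and counts at 48 h against 0 h that it moves are given with and without it, as are some other values. Of 8 markers of osteosarcoma and mesenchymal cells, 4 reached 1 FPKM as a mean over the 9 libraries (VIM, SPARC, RUNX2 and CDH2). In the controls COL1A1 stood at 0.495, COL1A2 at 0.0221 and ALPL at 0.0786 FPKM. S100A4 had a mean of 0.674 FPKM in the controls, 0.544 at 24 h and 1.025 at 48 h. The summed level of 3 epithelial keratin and adhesion genes (KRT8, KRT18, EPCAM) was 184 to 193 FPKM in the controls, 187 to 214 at 24 h and 139 to 153 at 48 h. By the test all 3 fell at 48 h, as did 3 of the 4 measured osteosarcoma and mesenchymal markers (SPARC by 0.56, RUNX2 by 0.50 and CDH2 by 0.14 on the log2 scale). With 1 library left out the adjusted p reached 0.133 for CDH2 and 0.0688 for EPCAM. The sum of the 8 mesenchymal markers was 358 to 370 FPKM in the controls, 362 to 451 at 24 h and 390 to 419 at 48 h. Most of that sum was VIM, with means of 304 FPKM in the controls, 331 at 24 h and 357 at 48 h. Every 48 h library of VIM lay above every control, but it did not pass the test (0.23 ± 0.09, adjusted p = 0.0935 by limma). Without the third 24 h library VIM was called higher at 48 h. These changes ran alongside the 48 h results below, and their part in them was not tested. Markers of hepatocytes, endothelial cells and leukocytes summed to at most 0.734 FPKM in any library, and adipocyte markers to 1.70 to 3.24 FPKM, with CFD as the 1 of them that passed the filter.

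Promoter sequence from RefSeq (GRCh38.p14, 250 bases before to 50 after each start) was held for 9 of the 10 genes, in 15 windows, with FASN as the gene without an entry. The stretches below lie upstream of the start and outside annotated exons. They show 3 genes that rose at 48 h and have a long stretch of this kind, and ELOVL6 as a gene that did not pass the test. Capitals mark CCAAT boxes (CCAAT, or ATTGG on the other strand) and GC boxes (GGGCGG, or CCGCCC on the other strand). They are SCD at chr10:100346983-100347123 on the plus strand, ACLY at chr17:41919023-41919272 on the minus strand, LPIN1 at chr2:11746382-11746587 on the plus strand and ELOVL6 at chr4:110198677-110198841 on the minus strand, all written 5′ to 3′ along the gene.
SCD: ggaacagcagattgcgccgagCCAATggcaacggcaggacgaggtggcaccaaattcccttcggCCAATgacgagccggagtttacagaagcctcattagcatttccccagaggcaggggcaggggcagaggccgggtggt
ACLY: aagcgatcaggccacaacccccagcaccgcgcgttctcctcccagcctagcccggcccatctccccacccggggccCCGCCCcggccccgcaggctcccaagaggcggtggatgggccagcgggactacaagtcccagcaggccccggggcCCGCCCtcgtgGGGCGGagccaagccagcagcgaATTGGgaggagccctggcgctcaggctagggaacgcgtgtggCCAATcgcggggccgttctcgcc
LPIN1: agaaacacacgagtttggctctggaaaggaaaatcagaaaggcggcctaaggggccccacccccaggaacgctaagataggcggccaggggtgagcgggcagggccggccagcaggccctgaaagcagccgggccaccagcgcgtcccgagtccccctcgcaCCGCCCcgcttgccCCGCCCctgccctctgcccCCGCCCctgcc
ELOVL6: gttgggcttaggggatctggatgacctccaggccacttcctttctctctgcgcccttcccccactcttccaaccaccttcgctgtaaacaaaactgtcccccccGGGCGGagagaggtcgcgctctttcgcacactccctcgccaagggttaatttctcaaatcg
The SCD stretch holds 2 CCAAT boxes, and the ACLY stretch holds 2 CCAAT boxes beside several GC boxes. The LPIN1 stretch holds several GC boxes and the ELOVL6 stretch 1, and neither holds a CCAAT box. Of the 3 LPIN1 windows only the first is shown. The second, with a stretch of 250 bases, holds neither box, and the third holds 1 GC box. Over whole windows, read on both strands, a CCAAT box was present in 7 of the 15 windows (5 of 9 genes) and in 34.61% of all 35116 RefSeq windows, and a GC box in 11 of 15 (8 of 9 genes) against 44.95%. Windows of 1 gene can overlap, as those of ACLY do, which hold the same 2 CCAAT boxes. The sterol response element core CACCCCAC was in 0 of the 15 windows and in 2.79% of all windows. The E-box CACGTG was in 1 of 15, that of ELOVL5, against 7.26%. No match of one motif overlapped a match of another. These matches describe letters and not bound sites.

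Expression level per exon length spread widely in the control cells. SCD, the desaturase that makes oleate, was the most abundant at 107 ± 2.56 FPKM (SD, n = 3), above 97.8% of the tested protein-coding genes. ELOVL5 followed at 62.3 ± 1.59 and ACLY at 43.3 ± 1.38 FPKM. FASN (20.7 ± 1.58), FADS1 (17.7 ± 0.114) and ELOVL6 (10.1 ± 0.360) held the middle of the order. LPIN1 (8.62 ± 0.268), SREBF1 (7.10 ± 0.642), ACACA (6.95 ± 0.479) and FADS2 (2.95 ± 0.0811) were lowest, with FADS2 above 23.8% of protein-coding genes. The only neighbours in this order whose control libraries overlapped were SREBF1 and ACACA. At 48 h LPIN1 lay above ELOVL6, and ACACA above SREBF1, in every library. Relative spread over the 9 libraries was widest for LPIN1 (coefficient of variation 27.5%) and FADS2 (20.3%) and narrowest for ELOVL5 and ELOVL6 (3.2% each).

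**Figure D1:**
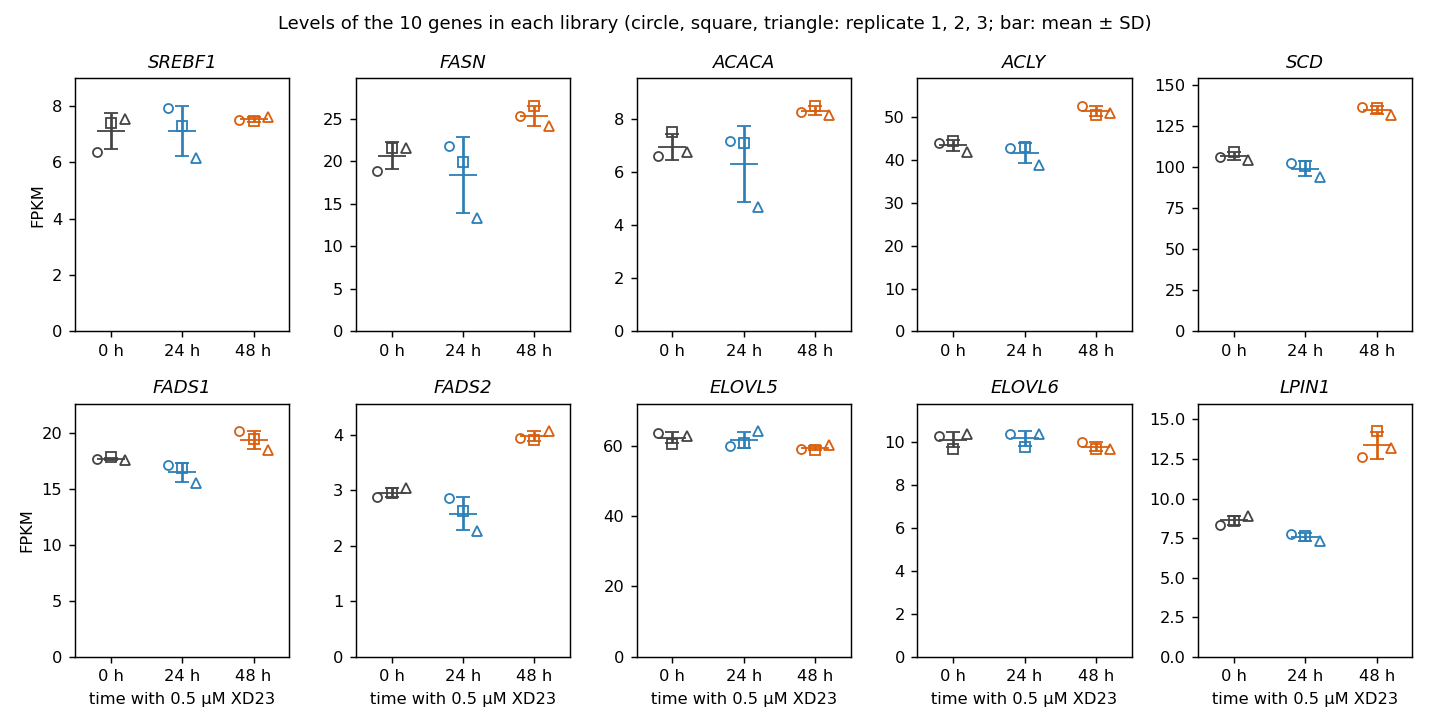
FPKM of each of the 10 genes in each of the 9 libraries, by group (control 0 h, XD23 24 h, XD23 48 h). Circles, squares and triangles are replicates 1, 2 and 3, and bars are the mean ± SD (n = 3). LPIN1, SCD, ACLY, FADS2, FADS1, FASN and ACACA show 3 libraries at 48 h above all others. The third 24 h library is the lowest point for every gene but ELOVL5 and ELOVL6.

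SREBF1, the regulator (ENSG00000072310, chromosome 17, 17810399 to 17837002, minus strand, GRCh38), did not pass the test in any comparison. Its control libraries were at 6.37, 7.41 and 7.54 FPKM, the 24 h libraries at 7.91, 7.30 and 6.15, and the 48 h libraries at 7.49, 7.47 and 7.61. The groups overlapped at each time. The log2 fold change of FPKM + 1 was 0.08 ± 0.08 (SE) at 48 h against 0 h, with an adjusted p of 0.547 by limma over all genes tested. These gene-level values do not separate the SREBP-1a and SREBP-1c transcripts or show cleavage of the protein. In 6.9% of its exon bases SREBF1 overlaps RAI1 on the opposite strand, and since no strand setting is stated, fragments there cannot be told apart.

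ACLY, which supplies acetyl-CoA (ENSG00000131473, chromosome 17, 41866908 to 41930542, minus strand), rose at 48 h. It measured 43.9, 44.3 and 41.7 FPKM in the controls, 42.8, 43.0 and 38.8 at 24 h, and 52.6, 50.3 and 50.9 at 48 h. All 3 libraries at 48 h lay above all 6 others. The mean was 18.4% above the control, a log2 fold change of 0.24 ± 0.05 (adjusted p = 0.0064). At this time 1811 of all 13657 tested genes, 13.3%, rose and 2080, 15.2%, fell, so that 46.5% of the calls were increases. With median-of-ratios scaling the share of increases was 57.1%.

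ACACA, the rate-limiting carboxylase (ENSG00000278540, chromosome 17, 37084988 to 37406818, minus strand), and FASN (ENSG00000169710, chromosome 17, 82078333 to 82098332, minus strand) were higher in all 3 libraries at 48 h than in all 3 controls, without passing the test. ACACA measured 6.60, 7.50 and 6.75 FPKM in the controls, 7.17, 7.10 and 4.67 at 24 h, and 8.27, 8.50 and 8.17 at 48 h. FASN measured 18.9, 21.6 and 21.6 FPKM in the controls, 21.8, 19.9 and 13.3 at 24 h, and 25.4, 26.6 and 24.2 at 48 h. In both genes, as in every gene here but ELOVL5 and ELOVL6, the third 24 h library was the lowest of the 9. The log2 fold change at 48 h against 0 h was 0.23 ± 0.13 for ACACA (adjusted p = 0.213). For FASN it was 0.29 ± 0.15 (adjusted p = 0.193). The fit shares 1 estimate of the spread over all 9 libraries. Without the third 24 h library the same folds had standard errors of 0.05 for ACACA (adjusted p = 0.00667) and 0.06 for FASN (adjusted p = 0.00861). 

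SCD (ENSG00000099194, chromosome 10, 100347124 to 100364834, plus strand) rose at 48 h. It measured 106, 109 and 104 FPKM in the controls, 102, 101 and 93.7 at 24 h, and 136, 136 and 132 at 48 h. The 48 h libraries lay above all others, and all 3 libraries at 24 h lay below the controls. The mean at 48 h was 26.5% above the control, a log2 fold change of 0.34 ± 0.04 (adjusted p = 0.000671) that was larger than that of 93.1% of the tested genes.

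FADS2, the delta-6 desaturase (ENSG00000134824, chromosome 11, 61792980 to 61867354, plus strand), rose from a low level. Its control libraries were at 2.87, 2.95 and 3.03 FPKM, the 24 h libraries at 2.86, 2.62 and 2.26, and the 48 h libraries at 3.94, 3.91 and 4.07. No 24 h library reached the lowest control, and every 48 h library lay above the highest. The mean at 48 h was 1.35 times the control mean, and the log2 fold change of FPKM + 1, which understates the change of low genes, was 0.33 ± 0.06 (adjusted p = 0.00596).

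FADS1, the delta-5 desaturase (ENSG00000149485, chromosome 11, 61799625 to 61829318, minus strand), acts after FADS2 in making long polyunsaturated fatty acids. It measured 17.6, 17.8 and 17.6 FPKM in the controls, 17.1, 16.9 and 15.5 at 24 h, and 20.1, 19.4 and 18.5 at 48 h. The 3 groups did not overlap, but the difference at 48 h, 0.12 ± 0.05 on the log2 scale, did not pass the test (adjusted p = 0.0769). Without the third 24 h library its adjusted p was 0.0237. FADS1 lies inside the annotated span of FADS2 on the opposite strand, and the 490 exon bases that both genes share are 4.8% of the exon bases of FADS1 and 4.4% of those of FADS2. Fragments from those bases cannot be assigned by strand.

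The elongases moved little. ELOVL5, which lengthens polyunsaturated chains (ENSG00000012660, chromosome 6, 53267398 to 53349179, minus strand), measured 63.7, 60.6 and 62.7 FPKM in the controls, 60.0, 60.9 and 64.2 at 24 h, and 59.0, 58.9 and 60.1 at 48 h. The 48 h libraries were all just below the controls, with a log2 difference of -0.07 ± 0.04 (adjusted p = 0.20). ELOVL6, which takes palmitate to stearate (ENSG00000170522, chromosome 4, 110045846 to 110199199, minus strand), measured 10.3, 9.71 and 10.4 FPKM in the controls, 10.4, 9.80 and 10.4 at 24 h, and 10.0, 9.71 and 9.68 at 48 h. Its groups overlapped, with a log2 difference of -0.04 ± 0.04 (adjusted p = 0.496).

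LPIN1 (ENSG00000134324, chromosome 2, 11677595 to 11827409, plus strand) rose the most of the 10. It measured 8.36, 8.60 and 8.90 FPKM in the controls, 7.79, 7.64 and 7.29 at 24 h, and 12.6, 14.3 and 13.2 at 48 h. The 3 groups did not overlap, with 24 h lowest and 48 h highest. The 48 h mean was 1.55 times the control, with a log2 fold change of 0.58 ± 0.05 (adjusted p = 0.000142), ranking 248 from the top among all tested genes. The counts behind it were 1896 to 3878 fragments per library.

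**Figure D2:**
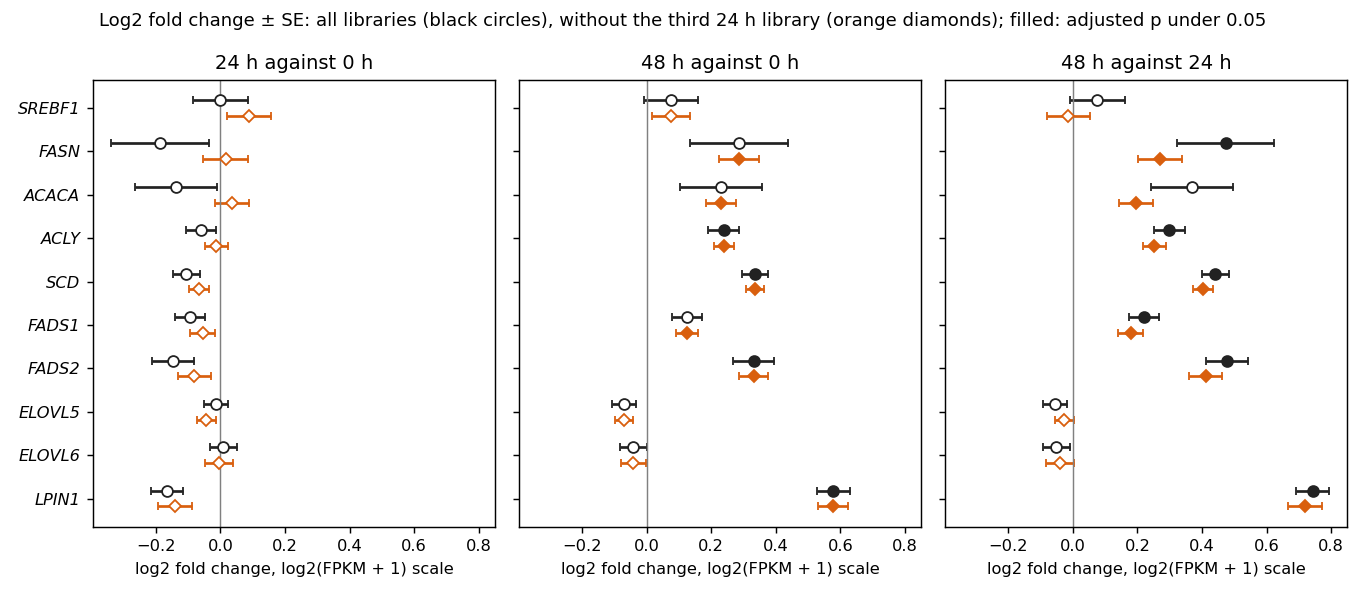
Log2 fold change of FPKM + 1 (horizontal axis) for each of the 10 genes in each comparison, with bars of 1 SE from limma, from all libraries (black circles) and without the third 24 h library (orange diamonds); filled points passed an adjusted p of 0.05. Over all libraries LPIN1 is furthest to the right at 48 h against 0 h (0.58) and at 48 h against 24 h (0.74), while no point is filled at 24 h against 0 h.

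Read as a group at 48 h against 0 h, 4 of 10 genes rose and 0 fell by limma, beside 13.3% and 15.2% of all tested genes. At an unadjusted p below 0.05 there were 5 of the 10 and 40.1% of all tested genes, shares that lie close together. In 7 of 10 every 48 h library lay above every control, against 22.7% of all tested genes. The median log2 fold change of the 10 was 0.23, against -0.03 over all tested genes, whose 5th to 95th percentiles ran from -0.42 to 0.39. Without the third 24 h library 7 of 10 rose (ACLY, ACACA, FASN, SCD, FADS1, FADS2 and LPIN1), against 17.5% of the 13543 genes then tested.

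At 24 h against 0 h none of the 10 genes was called by limma, and 2 of 10 had an unadjusted p below 0.05, which 7.43% of all tested genes had. Over all tested genes 0.0% rose and 0.00732% fell, a single gene, the small nuclear RNA RNU6-548P (-0.79 ± 0.07, adjusted p = 0.0320), which is named here after its value was seen.  SCD, FADS1, FADS2 and LPIN1 had every 24 h library below every control, with log2 differences of -0.11 ± 0.04, -0.10 ± 0.05, -0.15 ± 0.06 and -0.17 ± 0.05. Such a split, all lower, was found in 8.38% of all tested genes. Without the third 24 h library the 4 differences were -0.07, -0.05, -0.08 and -0.14, smaller by over 1.5 times in SCD, FADS1 and FADS2. The median difference was -0.10 over the 10 genes and -0.02 over all genes, and without that library -0.03 and -0.01. FASN then differed by 0.02 and ACACA by 0.04 in place of -0.19 and -0.14, and again no gene was called.

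Between 24 h and 48 h, 6 of the 10 genes rose and 0 fell, while 16.0% of all tested genes rose and 16.3% fell. LPIN1 differed by 0.74 ± 0.05 on the log2 scale (adjusted p = 3.71e-05), 1.76 times the 24 h mean. FADS2 differed by 0.48 ± 0.06 (adjusted p = 0.00085) and SCD by 0.44 ± 0.04 (adjusted p = 0.000147). In each of these 3 genes the 48 h libraries lay above all 24 h libraries. ACLY rose by 0.30 ± 0.05 (adjusted p = 0.00183) and FADS1 by 0.22 ± 0.05 (adjusted p = 0.00745). FASN rose by 0.47 ± 0.15 (adjusted p = 0.0408), and ACACA, at 0.37 ± 0.13, did not pass (adjusted p = 0.0544). Both of these folds include the third 24 h library, which was low: without it FASN differed by 0.27 ± 0.07 (adjusted p = 0.0193) and ACACA by 0.19 ± 0.05 (adjusted p = 0.0237). The FASN call thus held without that library. Removing a single library of the controls or of 48 h, whichever of the 6 it was, ended it, with adjusted p-values of 0.0520 to 0.118. It was also lost with no filter (adjusted p = 0.127), with no trend (0.0506) and with only the compared groups in the fit (0.0764). In 7 of 10 genes every 48 h library lay above every 24 h library, against 23.1% of all tested genes.

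The third 24 h library differed from its group in some of these genes more than in others. Against the mean of the other 2 libraries at 24 h it was lower by 0.61 on the log2 scale in FASN, by 0.52 in ACACA and by 0.27 in SREBF1. FADS2 differed by -0.20, ACLY by -0.14, FADS1 by -0.12, SCD by -0.11 and LPIN1 by -0.07. ELOVL6 (0.04) and ELOVL5 (0.09) were the 2 genes of the 10 that were not lower. The median of the 10 was -0.13, against -0.01 over all tested genes, -0.08 over the 5835 with exons of at least 5000 bases and 0.08 over the 3008 with exons under 2000 bases. The part of length or of RNA quality in these values was not tested.

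Ratios within a library were used to ask whether pairs of genes changed unequally, with an exact permutation test over the 3 groups whose smallest possible p is 0.003571, adjusted over the 6 ratios tested. The log2 ratio of FADS2 to FADS1 was -2.24 ± 0.033 in the controls (SD, n = 3), -2.29 ± 0.057 at 24 h and -2.03 ± 0.080 at 48 h. It was higher in all 3 libraries at 48 h than in all others (exact permutation p = 0.0107, adjusted p = 0.0321). Leaving out control replicate 2 or 3 (adjusted exact permutation p = 0.0536 each) or 24 h replicate 2 (0.0643) ended that call. The log2 ratio of SREBF1 to SREBF2 was -0.89 ± 0.082 in the controls, -0.71 ± 0.061 at 24 h and -1.27 ± 0.066 at 48 h. Its 3 groups did not overlap (exact permutation p = 0.003571, the smallest possible, adjusted p = 0.0214).

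The other 4 ratios did not pass. Between ELOVL6 and ELOVL5 the ratio differed by 0.03 on the log2 scale from control to 48 h (adjusted exact permutation p = 0.836). Between SCD and FASN it differed by 0.05 (adjusted exact permutation p = 0.939) and between ACACA and FASN by -0.06 (adjusted exact permutation p = 0.386). The log2 ratio of LPIN1 to FASN was -1.17 ± 0.077 in the controls and -0.88 ± 0.066 at 48 h, but -1.15 ± 0.315 at 24 h, where its libraries were at -1.38, -1.28 and -0.79 (adjusted exact permutation p = 0.386). Without the third 24 h library the adjusted p of that ratio was 0.0214.

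**Figure D3:**
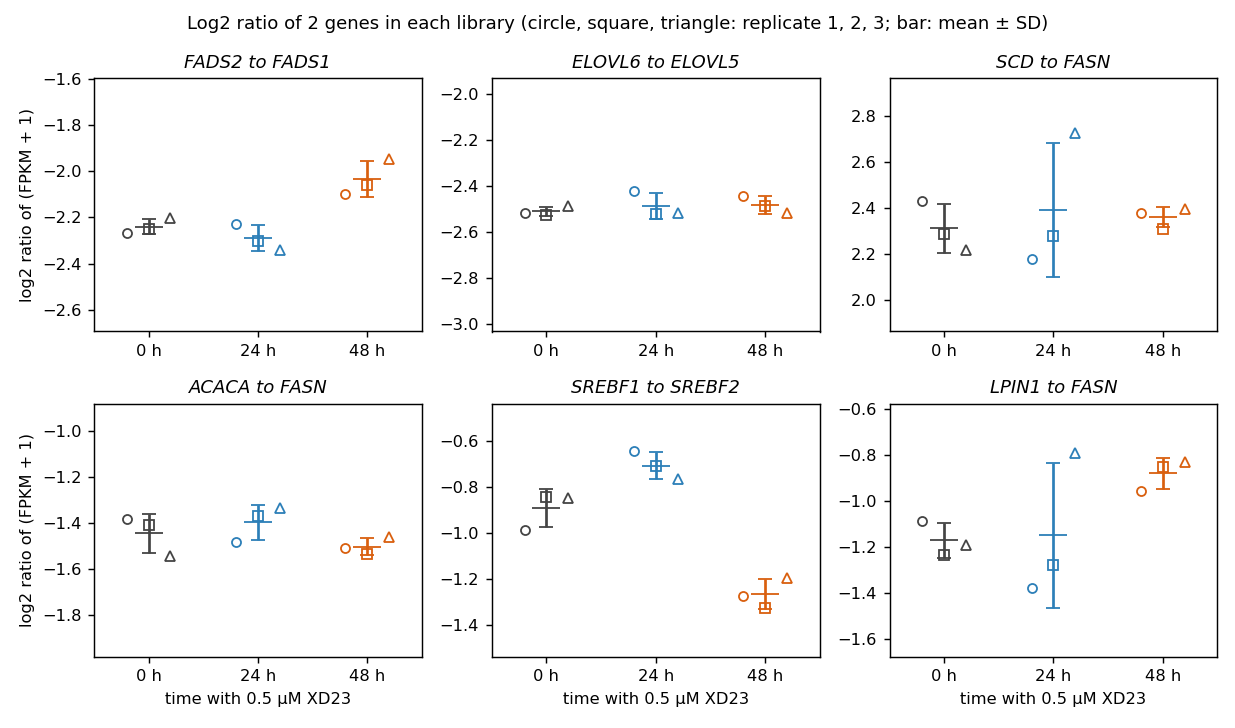
Log2 ratio of FPKM + 1 between 2 genes (vertical axis) in each of the 9 libraries, by group, for the 6 ratios tested; symbols are replicates 1, 2 and 3, bars are the mean ± SD (n = 3), and every panel spans the same log2 range. SREBF1 to SREBF2 falls to its lowest values at 48 h (-1.33 to -1.19), and FADS2 to FADS1 has its highest values there (-2.10 to -1.94).

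Of 14 tested genes that process SREBP or regulate lipid synthesis, 7 rose and 1 fell at 48 h against 0 h, with a median log2 fold change of 0.15. Over all tested genes, 13.3% rose and 15.2% fell with a median of -0.03, the background for this and the following lists. SREBF2 went from 14.0 ± 0.381 FPKM in the controls to 12.2 at 24 h and 19.5 ± 0.763 at 48 h (0.45 ± 0.06, adjusted p = 0.000752). INSIG1, which holds SREBP in the endoplasmic reticulum and is itself an SREBP target, went from 5.49 to 10.3 FPKM (0.81 ± 0.11, adjusted p = 0.00101). Its paralog INSIG2 went from 4.24 to 6.41 FPKM (0.50 ± 0.06, adjusted p = 0.000752). SCAP, the escort protein, stayed at 9.78 FPKM in both groups (0.00 ± 0.07, adjusted p = 0.997). THRSP, a lipogenic regulator, was below the filter in all groups.

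Of 9 tested genes that supply acetyl-CoA, malonyl-CoA and NADPH, 1 rose and 1 fell at 48 h against 0 h, with a median of 0.03. Leaving out the third 24 h library gave 3 that rose and 1 that fell, where 17.5% of all tested genes rose and 20.5% fell. ACSS2, which makes acetyl-CoA from acetate, went from 10.3 to 11.3 FPKM (0.12 ± 0.04, adjusted p = 0.0466). MCAT, of mitochondrial fatty acid synthesis, went from 5.74 to 4.96 FPKM (-0.18 ± 0.06, adjusted p = 0.0468). Both calls ended when any 1 library other than the third 24 h library was left out, with adjusted p-values up to 0.139 for ACSS2 and 0.134 for MCAT. ACACB, the carboxylase of the mitochondrial surface, was below the filter at 0.487 FPKM in the controls.

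Among the other desaturases and enzymes of chain elongation, 2 of 13 tested rose and 5 fell, with a median of -0.11. FADS3, a desaturase next to FADS1 and FADS2, went from 2.48 to 3.40 FPKM (0.34 ± 0.07, adjusted p = 0.00611). HSD17B12, the ketoacyl reductase of the elongation cycle, went from 6.54 to 5.30 FPKM (-0.26 ± 0.06, adjusted p = 0.0122). TECR, the last reductase of that cycle, went from 6.55 to 5.54 FPKM (-0.21 ± 0.06, adjusted p = 0.0381). The TECR call was lost on removal of any single control or of 48 h replicate 2 or 3, with adjusted p-values of 0.0533 to 0.129.

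Downstream, 4 of 10 tested genes of fatty acid activation and uptake rose and 0 fell, with a median of 0.11. Of these, the acyl-CoA synthetase ACSL3 went from 8.68 to 10.4 FPKM (0.23 ± 0.04, adjusted p = 0.00221). Of 14 tested genes of glycerolipid synthesis, the branch in which LPIN1 acts, 3 rose and 1 fell, with a median of 0.10, beside 13.3% and 15.2% of all tested genes. LPIN2, of the same family as LPIN1, had 33.1 FPKM in the controls and 34.0 at 48 h. It did not pass the test (0.04 ± 0.08, adjusted p = 0.756 by limma). LPCAT1, which reacylates lysophosphatidylcholine, went from 12.5 to 18.9 FPKM (0.56 ± 0.04, adjusted p = 4.60e-05). AGPAT2 (0.27 ± 0.07, adjusted p = 0.0184) and GPAT4 (0.19 ± 0.06, adjusted p = 0.0356), which rose, act before LPIN1 in making phosphatidate. So does GPAM, the 1 gene of this list that fell (-0.18 ± 0.05, adjusted p = 0.0359). The AGPAT2 call was lost on removal of control replicate 1 or 3 or of 48 h replicate 1 (adjusted p up to 0.0587). That of GPAT4 was lost on removal of any single library at 0 h or 48 h (adjusted p up to 0.119). In none of these lists was a gene called at 24 h. Without the third 24 h library, 8 genes of the SREBP list rose at 48 h against 0 h and 1 fell. In the list of other desaturases and elongation 2 rose and 6 fell. Fatty acid activation and uptake and glycerolipid synthesis each had 4 that rose and 1 that fell. Of all genes then tested 17.5% rose and 20.5% fell.

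**Figure D4:**
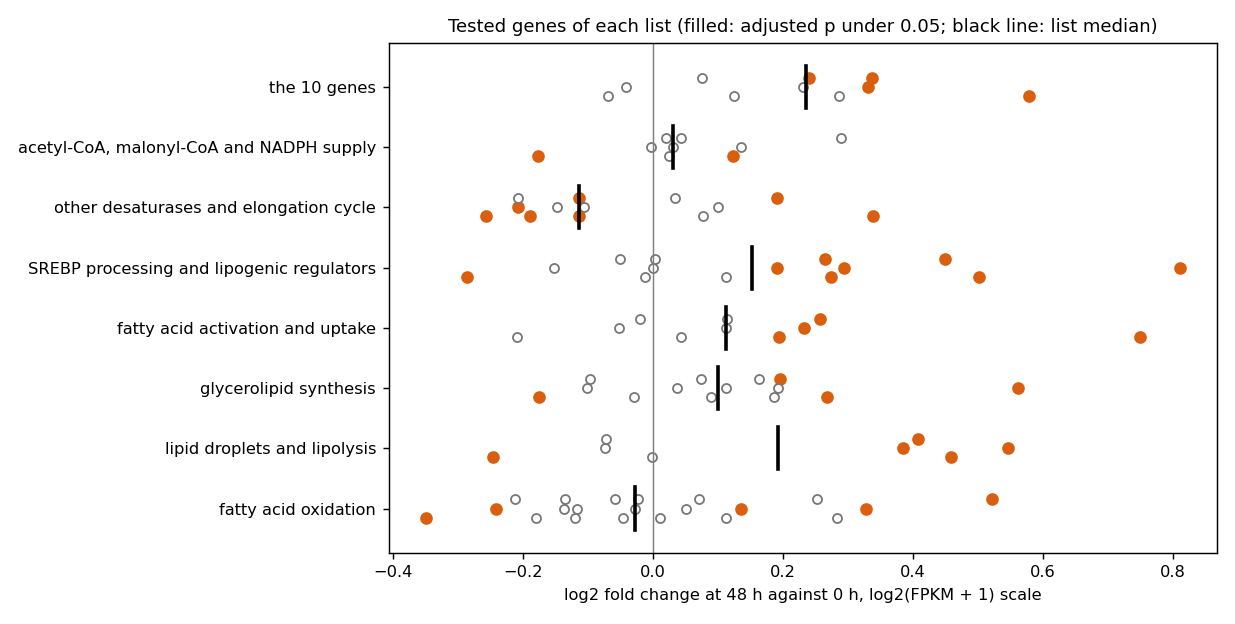
Log2 fold change of FPKM + 1 at 48 h against 0 h (horizontal axis) for every tested gene of the 10 and of the 7 other lists; filled points passed an adjusted p of 0.05, short black lines are list medians and the long grey line is 0. The 10 genes have a median of 0.23 and the list of other desaturases and elongation -0.11.

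Patterns most like that of LPIN1 over the 9 libraries, measured as the root mean square difference of centred log2 values among 10854 protein-coding genes, were those of TNFRSF9 (0.028), RASSF8 (0.030) and DDX60 (0.032), where the median gene differed by 0.332. For ELOVL5, which had the lowest fold change at 48 h, they were TMPO (0.017), CYB5R4 (0.020) and YWHAE (0.021), where the median gene differed by 0.116. The values are log2 of FPKM + 1, which understates the change of low genes. From the controls to 48 h, TNFRSF9 went from 0.786 to 1.62 FPKM and DDX60 from 1.60 to 3.01 FPKM. RASSF8 went from 28.7 to 43.0 FPKM. All points share the same libraries and depth.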

How the data were processed

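Poly(A)-selected mRNA of 143B cells was sequenced as paired-end libraries. Per the submitters' processing notes HISAT2, featureCounts of Subread and DESeq2 were used with build hg38; the versions, the annotation release and the strand setting are not stated. The authors deposited 1 FPKM value per gene and library, and the values themselves show division by exon length and by a library total. Libraries were grouped by the treatment labels. The 10 genes, the 7 other lists (120 of 122 genes matched) and the tests were chosen with earlier results of these data known.

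FPKM were put on the log2 scale with a pseudocount of 1. Genes with at least 1 FPKM in at least 3 libraries (13657) were fitted with limma 3.58.1 in R 4.3.3, 1 mean per group over all 9 libraries, trended variance and 6 residual degrees of freedom, and p-values were adjusted over all genes by the Benjamini-Hochberg method at 0.05. Fold changes are on the log2(FPKM + 1) scale and understate those of low genes. The 6 log2 ratios were tested by exact permutation (1680 assignments). Whole fragments were sought by multiplying FPKM by exon length and library total. With GENCODE 29 lengths, 20926 of 35585 genes (58.8%) came out whole within 0.001, and for the rest the length the authors used is not known, so no count test was run. Fragment numbers of 8 of the 10 genes here use the smallest length that gave whole fragments in all 9 libraries, and may be a fraction of the true number. The fit was tested on simulated data. From each other list up to 3 called genes with the largest change at 48 h against 0 h were named. SREBF2, SCAP, INSIG1, ACACB, ACSS2, THRSP, PLIN2 and CPT1A were added. GPAM and LPIN2 were named outside this rule, after their values were seen. Not every gene the rule picks is reported here. Of the most alike genes, 3 were named for the member with the highest and 3 for the member with the lowest fold change at 48 h. Alternatives changed the pseudocount, filter, scaling, variance model, libraries and replicate block.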

Additional observations from a re-analysis of the deposited data

Results flagged for a closer look

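Of the 10 genes, 6 are listed because their effect at 48 h differed from that at 24 h by the test of the difference itself, limma over all tested genes. The values are the log2 difference between 48 h and 24 h: 0.74 in LPIN1, 0.48 in FADS2, 0.47 in FASN, 0.44 in SCD, 0.30 in ACLY and 0.22 in FADS1. In all 6 genes every 48 h library lay above every 24 h library. The value for FASN was 0.27 without the third 24 h library. Both effects are measured from the same controls, and time and compound cannot be told apart.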

How the results depend on the processing

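Over 19 alternatives, 541 of 567 values of the 10 genes stayed on the same side of the threshold. Of the rest, 17 newly passed it and 9, all of FASN at 48 h against 24 h, no longer did. Among values that passed in either fit, 0 reversed direction. Some that passed in neither changed sign, such as FASN (-0.19 to 0.02) and ACACA (-0.14 to 0.04) at 24 h without the third 24 h library. The calls of ACLY, SCD, FADS2 and LPIN1 at 48 h against 0 h held under every alternative that could be fitted (18 for FADS2, which a filter at 5 FPKM removed). The count of the 10 genes called there was 4, and 7 with array weights, 7 with only the compared groups in the fit and 4 to 7 when 1 library was left out. The calls over all genes there also grew, from 3891 to 5231 with array weights and to 4832 with only the compared groups. At 24 h it was 0 under all 19 alternatives. Of all genes, 1 was called at 24 h, and 46 with array weights, 3 with no filter, 4 with quantile scaling, 0 with no trend, 0 with only the compared groups, 0 with the replicate block and 0 to 2 with 1 library left out. At 48 h against 0 h 3891 were called, and 2551 (without 48 h replicate 2) to 5136 (without 24 h replicate 3) with 1 library left out. After each gene's group mean was taken away, same-numbered libraries of different groups correlated at -0.057 to 0.239, over 0.1 in 2 of 9 pairs. By the same measure 4 of 9 libraries correlated best with their own number, so the numbers were not taken as pairing. With the replicate block the ratio of FADS2 to FADS1 differed by 0.207 (adjusted exact permutation p = 0.1667, unadjusted 0.0556) and that of SREBF1 to SREBF2 by -0.373 (adjusted exact permutation p = 0.1667, unadjusted 0.0278). The 216 assignments within blocks allow no unadjusted p below 0.0278, which for 1 ratio alone is 0.1667 after adjustment over 6, so the loss of these calls says nothing about their stability. With 1 library left out FADS2 to FADS1 differed by 0.162 to 0.239 and LPIN1 to FASN by 0.259 to 0.334. The causes of these changes were not tested. Depth limits FADS2 most, at 523 to 944 fragments.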

Other observations

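Lipid droplet and lipolysis genes stood higher at 48 h against 0 h in 4 of 8 tested and lower in 1, with a median log2 fold change of 0.19, where 13.3% of all tested genes rose and 15.2% fell. HILPDA, which inhibits lipolysis at the droplet, went from 5.31 to 8.21 FPKM (0.55 ± 0.06, adjusted p = 0.000319). The droplet coat genes PLIN3 (23.4 to 32.6 FPKM, 0.46 ± 0.05, adjusted p = 0.000472) and PLIN2 (18.7 to 24.7 FPKM, 0.38 ± 0.07, adjusted p = 0.00583) rose. PNPLA3 rose by 0.41 ± 0.11 (adjusted p = 0.0279), a call lost on removal of any single control or of 48 h replicate 1 or 2 (adjusted p of at least 0.0571).

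Fatty acid oxidation genes were called higher in 3 of 21 tested and lower in 2, with a median of -0.03. With 13.3% of all tested genes rising and 15.2% falling, this count is near the background. ACADVL, the very long-chain acyl-CoA dehydrogenase, went from 56.7 to 81.8 FPKM (0.52 ± 0.04, adjusted p = 0.000119). CPT1A, which admits long chains to the mitochondrion, went from 11.3 to 14.4 FPKM (0.33 ± 0.05, adjusted p = 0.00295). ECHS1, the short-chain enoyl-CoA hydratase, went from 58.7 to 45.8 FPKM (-0.35 ± 0.08, adjusted p = 0.0118). Without the third 24 h library 4 of these genes were higher and 5 lower, where 17.5% of all tested genes rose and 20.5% fell.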
